A study of Mus musculus with 8 samples.

Results

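The oxidative phosphorylation genes were examined for acetylation of histone H3 at lysine 56 (H3K56ac) in muscle stem cells. They were chosen by name and not by any measured value: protein-coding genes of the GENCODE annotation (mm10) whose symbols start with Nduf, Uqcr or Atp5, or read Sdha to Sdhd or Cox4 to Cox8. The rule found 93 genes among 21938 protein-coding genes on the assembled chromosomes. Of these, 82 encode subunits of the 5 enzyme complexes, 8 are the Ndufaf assembly factors of complex I, and the other 3 (Cox7a2l, Ndufa4l2 and Atp5s) are related proteins. Atp5o has 2 annotated entries, and the one with a complete start was used.

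The study immunoprecipitated H3K56ac from freshly isolated muscle stem cells (MuSCs) of C57BL/6 mice, either Control (wild type) or Sirt6mKO, in which Cre under the Pax7 promoter deletes floxed Sirt6 exons. SIRT6 is a deacetylase that can remove this mark. Because Pax7 marks the muscle lineage from early on, the Cre acts on the whole lineage and not on adult stem cells alone. Each genotype had 2 H3K56ac libraries and 2 input DNA libraries, 8 libraries in 4 groups. The cells were sorted by surface markers or a reporter, and the mice were adult males according to the study, with no age in the labels.

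What could be measured here is the authors' 1 merged list of 105600 peaks. The score was 0 in every row, and the list held 0 columns of values per sample. Overlapping peaks were united in making the list, so an entry may rest on peaks of several libraries or of only 1, and its width is that of the united stretch. Neither gives the strength of the mark, and Control and Sirt6mKO could not be compared. The study reported far fewer peaks in wild-type MuSCs than this list holds, and more peaks in Sirt6mKO MuSCs. A share or width given here may therefore not be that of wild-type cells. A mark carried by few cells and a weak mark carried by many cells cannot be told apart in such a list. No p-value is given: intervals are 95% limits (Wilson for shares, order statistics for medians), cover counting error only, and treat genes, which are not replicates, as draws.

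Oxidative phosphorylation passes electrons from NADH (complex I) and succinate (complex II) through complex III and cytochrome c to oxygen at complex IV, and the proton gradient built on the way drives ATP synthase (complex V). Quiescent MuSCs are known for few mitochondria and low respiration, while muscle fibres are rich in both. Several complex IV subunits exist as a general isoform, made in most tissues, and as a form made mainly in heart and skeletal muscle, lung or testis, so that the choice of isoform marks a tissue. H3K56ac lies in the core of the histone and is found at promoters of active genes.

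The general isoforms and their tissue-restricted relatives differed most within this group of genes, and the sequences of their promoters are shown first for that reason. Each run reaches from 250 bases before the RefSeq start (GRCm38.p6) to 30 bases after it, 5′ to 3′ on the gene's own strand. Capitals mark motifs searched on both strands: GCGCANGCG (NRF1), CCGGAAGT (ETS factors such as GABPA), AAGATGGCG (YY1), GGGCGG (SP1), CAAGGTCA (ERR), TATAAA and CCAAT. NRF1, GABPA, ERR alpha and YY1 are textbook regulators of nuclear genes for respiration.

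Cox6a1 and Cox7b2 lie on chromosome 5, Cox7a2 on chromosome 9, Cox7a1 and Cox8b on chromosome 7, Cox8a on chromosome 19 and Cox7b on chromosome X.
Cox6a1, general, chr5:115348929-115349208, minus strand: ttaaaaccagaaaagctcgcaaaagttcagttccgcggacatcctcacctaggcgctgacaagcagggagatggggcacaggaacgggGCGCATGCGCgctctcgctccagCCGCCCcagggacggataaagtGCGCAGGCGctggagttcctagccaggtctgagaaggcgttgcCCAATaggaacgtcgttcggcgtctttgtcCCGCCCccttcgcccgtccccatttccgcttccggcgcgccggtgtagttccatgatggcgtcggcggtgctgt
Cox7a2, general, chr9:79759824-79760103, minus strand: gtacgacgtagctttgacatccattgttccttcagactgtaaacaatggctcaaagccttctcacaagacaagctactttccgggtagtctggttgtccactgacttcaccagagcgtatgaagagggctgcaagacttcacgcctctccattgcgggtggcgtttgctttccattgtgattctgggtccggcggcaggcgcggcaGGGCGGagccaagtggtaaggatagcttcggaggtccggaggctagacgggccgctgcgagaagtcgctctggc
Cox7a1, heart and muscle, chr7:30183921-30184200, plus strand: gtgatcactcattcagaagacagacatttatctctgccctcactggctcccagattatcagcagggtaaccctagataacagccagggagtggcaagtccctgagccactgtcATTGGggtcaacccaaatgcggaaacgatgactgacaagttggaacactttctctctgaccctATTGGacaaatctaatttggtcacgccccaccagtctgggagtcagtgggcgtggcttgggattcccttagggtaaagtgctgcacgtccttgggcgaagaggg
Cox8a, general, chr19:7217587-7217866, minus strand: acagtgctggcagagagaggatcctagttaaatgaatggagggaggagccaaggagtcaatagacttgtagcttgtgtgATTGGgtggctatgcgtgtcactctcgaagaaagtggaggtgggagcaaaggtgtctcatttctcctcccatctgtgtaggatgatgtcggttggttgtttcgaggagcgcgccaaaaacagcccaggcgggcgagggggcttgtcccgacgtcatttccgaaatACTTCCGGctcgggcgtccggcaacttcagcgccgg
Cox8b, heart and muscle, chr7:140900417-140900696, minus strand: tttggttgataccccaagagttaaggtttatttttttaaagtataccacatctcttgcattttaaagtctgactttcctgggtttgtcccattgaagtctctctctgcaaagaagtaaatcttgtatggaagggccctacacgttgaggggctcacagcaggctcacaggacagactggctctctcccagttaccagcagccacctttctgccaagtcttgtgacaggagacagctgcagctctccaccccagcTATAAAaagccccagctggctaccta
Cox7b, general, chrX:106015450-106015729, plus strand: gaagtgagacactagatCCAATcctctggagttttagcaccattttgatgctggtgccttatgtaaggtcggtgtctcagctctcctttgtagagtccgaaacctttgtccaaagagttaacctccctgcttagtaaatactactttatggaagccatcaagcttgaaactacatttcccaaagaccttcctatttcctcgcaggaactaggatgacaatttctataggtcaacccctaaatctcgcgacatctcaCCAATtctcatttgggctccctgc
Cox7b2, testis, chr5:71548176-71548455, minus strand: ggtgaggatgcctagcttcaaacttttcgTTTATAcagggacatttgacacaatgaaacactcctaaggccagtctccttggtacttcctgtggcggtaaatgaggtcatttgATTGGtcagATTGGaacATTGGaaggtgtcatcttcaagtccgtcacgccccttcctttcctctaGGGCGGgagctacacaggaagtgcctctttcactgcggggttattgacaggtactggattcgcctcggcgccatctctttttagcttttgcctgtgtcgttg

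The Cox6a1 window held 2 places with the NRF1 motif and 2 with the SP1 motif. The Cox8a window of 300 bases held the ETS motif at 2 places, 1 of them in the last bases, which are not shown. Of these motifs, CCAAT was the only one in the Cox7a1 window and TATAAA the only one in that of Cox8b. CpG dinucleotides separated them further: their observed to expected ratio was 1.08 for Cox6a1, 0.833 for Cox7a2 and 0.842 for Cox8a, against 0.333 for Cox7a1 and 0.115 for Cox8b, which held 2 CpGs in 300 bases. The pattern was not general, since the ratio was 0.368 for the general gene Cox7b and 0.564 for the testis gene Cox7b2. All 280 bases shown lay inside a peak for Cox6a1, Cox7a2, Cox7a1, Cox8a and Cox7b, 176 of 280 did so for Cox8b, and 0 did so for Cox7b2.

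Nearly all of these genes had a peak of the merged list at the promoter. A promoter peak was a peak overlapping the 1 kb on either side of any annotated transcription start site (TSS) of the gene. Of the 93 genes, 89 had one (95.7%, 95% interval 89.5 to 98.3), against 65.4% of all protein-coding genes (14341 of 21938). In all 89 the main TSS itself lay inside a peak, which held for 58.0% of all coding genes (12717) and for 88.7% of the coding genes that had a promoter peak. Other housekeeping genes had shares of this order, so it does not set the group apart: it was 78 of 78 for mitochondrial ribosomal proteins, 48 of 50 for proteasome genes and 81 of 85 for cytosolic ribosomal proteins.

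The 4 genes without a promoter peak were Cox6a2 (heart and muscle), Cox7b2 and Cox8c (both testis) and Ndufa4l2, a relative of Ndufa4 known for its induction in hypoxia. All of them are tissue or condition isoforms. Of the 8 such isoforms in the group, 4 had a peak (50.0%, 21.5 to 78.5), and of the other 85 genes all did (100%, 95.7 to 100). The list of 8 was drawn up from textbook knowledge of the isoforms, but with earlier results of these data known. It is therefore not independent of them.

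**Figure D1:**
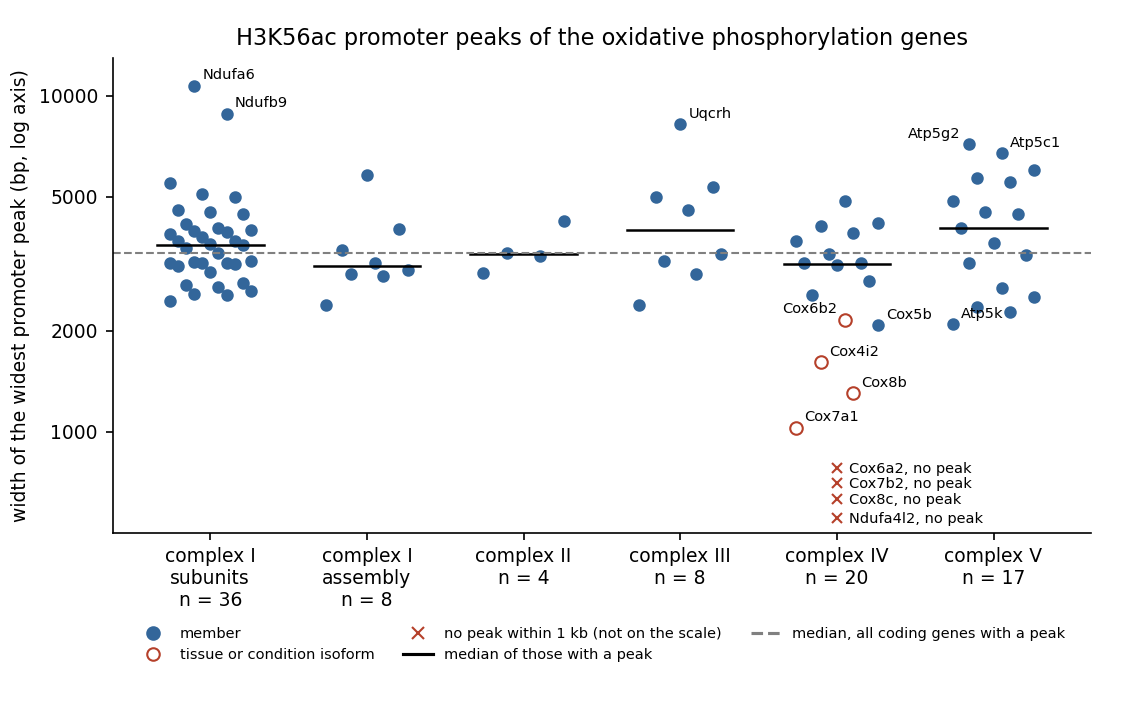
Width in bp (log axis) of the widest promoter peak of each of the 93 genes, by complex; complex IV includes Cox7a2l and Ndufa4l2, and complex V includes Atp5s. The open symbols and crosses, all in complex IV, are the 8 tissue or condition isoforms: 4 of them have no peak within 1 kb (crosses, placed below the scale), and 3 have a peak under 2000 bp.

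The complexes were marked alike except for complex IV. A promoter peak was found for 36 of 36 complex I subunits, 4 of 4 of complex II, 8 of 8 of complex III and 16 of 16 of complex V, against 15 of 18 for complex IV (83.3%, 60.8 to 94.2). The 8 Ndufaf assembly factors all had one. Of the 22 subunits classed as core, which apart from Atp5e have counterparts in the bacterial enzymes, all had a peak, and of the 60 accessory subunits 57 did, the 3 others being Cox6a2, Cox7b2 and Cox8c.

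Complex I takes electrons from NADH to ubiquinone. Its 36 subunit genes had a median promoter peak of 3607.5 bp (3183 to 3969), and their widths kept within a narrow range, with quartiles of 3141 and 4082.2 bp. Among the core subunits, the peak of Ndufv1, which binds NADH and flavin, was 2703 bp wide and that of its iron-sulfur partner Ndufv2 was 4987 bp. The iron-sulfur subunits Ndufs1, Ndufs7 and Ndufs8 had peaks of 5117, 2458 and 3180 bp, and Ndufs3 of the peripheral arm had 3123 bp. The widest peak of all 93 genes belonged to the accessory subunit Ndufa6 (10721 bp, chr15:82351954-82362674, wider than 97.0% of the promoter peaks of coding genes), reaching 8352 bp upstream of its TSS and 2368 bp downstream. Ndufb9 followed with 8860 bp, of which 6750 bp lay upstream, over the start of Tatdn1.

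Complex II, succinate dehydrogenase, is the only one of the 5 that is also an enzyme of the TCA cycle, and its 4 subunits are all nuclear. The peaks were 3345 bp for Sdha, the flavin subunit, 3409 bp for Sdhb, the iron-sulfur subunit, and 4238 and 2973 bp for the membrane anchors Sdhc and Sdhd. The upper quartile of these 4 widths was 1.11 times the lower, with 2973 and 4238 bp as the extremes. The start sites of Sdha and Sdhd each had a divergent neighbour within the same peak, Ccdc127 at 29 bp and Timm8b at 98 bp.

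Complex III passes electrons on to cytochrome c. Its 8 genes had a median width of 3973 bp (2377 to 8259). The Rieske protein gene Uqcrfs1 had 5355 bp, the core protein genes Uqcrc1 and Uqcrc2 had 2377 and 5010 bp, and the hinge protein gene Uqcrh had 8259 bp, the third widest of the 93, with 5992 bp of it upstream over the divergent start of Lrrc41. Cyc1, the cytochrome c1 subunit, which the naming rule does not take, had 3240 bp.

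Complex IV, cytochrome c oxidase, had the lowest median of the 5 complexes. It was 3130 bp (2081 to 3695) over the 15 subunit genes with a peak, 3 of which were under 2000 bp and 0 were over 5000 bp, while complexes I, III and V together held 12 over 5000 bp. Beyond the isoforms, Cox5b had 2081 bp, Cox7c 2552 bp, Cox6c 3695 bp and Cox5a 3914 bp.

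Complex V, ATP synthase, had the widest median, 4250.5 bp (2674 to 5699), although its interval overlapped those of complexes I to IV. In the catalytic head, Atp5a1 and Atp5b had 4042 and 3368 bp, and Atp5b had 4 separate promoter peaks at its several start sites. In the stalks, Atp5c1 had 6760 bp, Atp5d 6005 bp and Atp5f1 5532 bp, but Atp5o 2519 bp and Atp5e 2344 bp. The 3 genes for subunit c of the rotor ring encode the same mature protein, and all were marked, Atp5g1 over 3175 bp, Atp5g3 over 3659 bp and Atp5g2 over 7197 bp, of which 4889 bp lay upstream of the main TSS. In the membrane part Atp5k had one of the narrowest peaks, 2086 bp, which still covered the whole gene of 1205 bp.

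The isoform pairs were compared 1 by 1. Cox6a1, the general form of subunit 6A, had a peak of 3183 bp reaching 1149 bp upstream and 2033 bp downstream of its TSS. Its heart and muscle counterpart Cox6a2 (chromosome 7, 128205435 to 128206387, minus strand) had no peak on the gene and 0 peaks within 10 kb of its TSS. The nearest peak ended 29245 bp upstream, 3657 bp wide, at the start of Armc5. Cox6a2 thus lay outside the list by a wide margin and not at the edge of the window.

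The other heart and muscle forms did have peaks, but short ones. Cox7a2, the general form of subunit 7A, had 3385 bp, and Cox7a1 had 1028 bp (chr7:30183770-30184797), the narrowest of the 89 and wider than 7.0% of all promoter peaks of coding genes. The Cox7a1 peak reached 374 bp upstream and 653 bp downstream. Relative to the TSS, further peaks lay from -1579 to -555 bp and from -2614 to -1969 bp, so that the locus was marked in pieces: joining peaks less than 1 kb apart gave 3268 bp, next to 3385 bp for Cox7a2. Cox8a had 4096 bp, and Cox8b had 1304 bp (chr7:140899289-140900592), which reached 146 bp upstream and 1157 bp downstream and did not change on joining. The third form of subunit 8, the testis gene Cox8c, had no peak within 10 kb, and the nearest one lay 17831 bp upstream over Btbd7.

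Of the remaining pairs, Cox4i1 had 4848 bp and the lung form Cox4i2 had 1609 bp. With peaks less than 1 kb apart joined, they had 6091 and 4614 bp. Cox6b1 had 2802 bp and the testis form Cox6b2 had 2156 bp, which covered the whole gene of 1303 bp. Without joining, this was the closest pair. With peaks less than 1 kb apart joined, Cox7a2 and Cox7a1 were closer, at 3385 and 3268 bp. Cox7b had 3189 bp, while Cox7b2 had 0 peaks on its 105382 bp and none within 100 kb of its TSS, the nearest being 109733 bp away. Ndufa4, named as a complex I subunit but found in complex IV, had 3130 bp. Ndufa4l2 had none within 1 kb, but a peak of 2512 bp ended 1161 bp upstream of its TSS and another covered the 3′ end, 32.4% of the gene in all. With a window of 3 kb it counted as marked, and the other 3 did not.

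**Figure D2:**
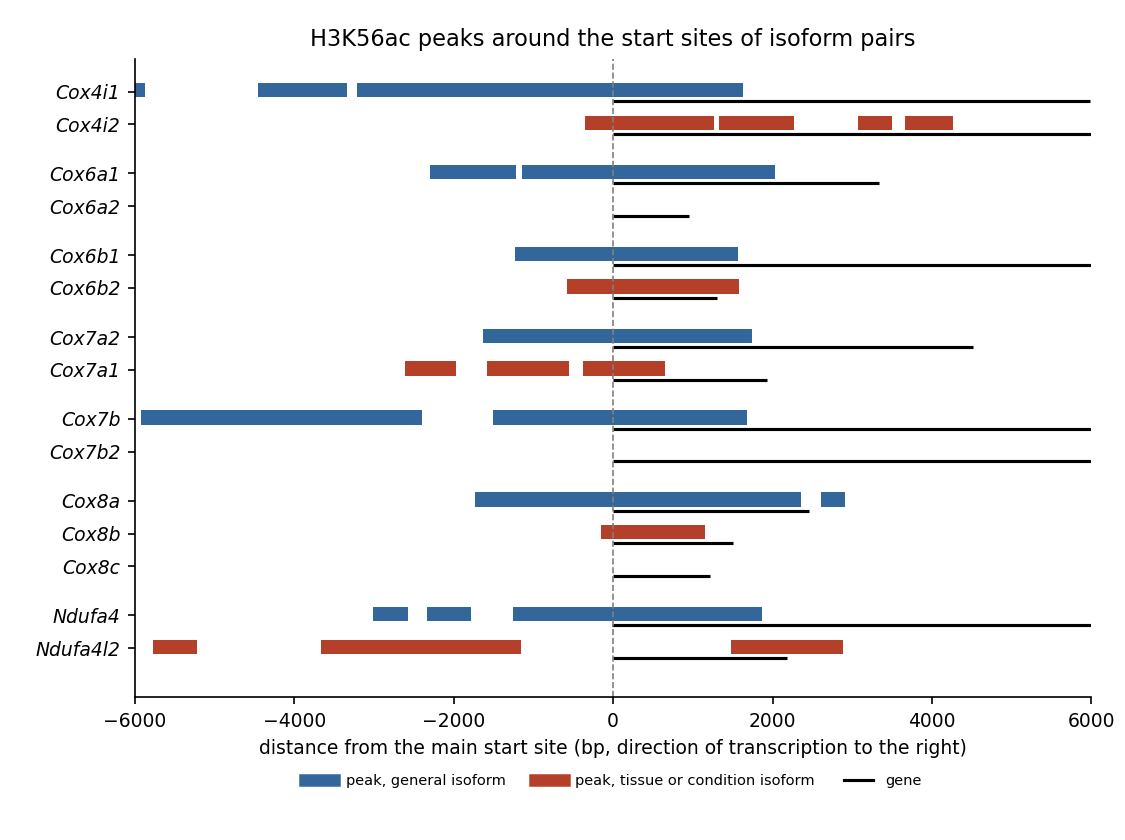
Peaks (bars) around the main TSS of the isoform pairs, with distance in bp along the direction of transcription and genes as black lines; the view ends 6000 bp on either side. The general isoforms each have a peak over the TSS reaching more than 1000 bp upstream, and the tissue or condition isoforms have a shorter one or none.

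In each of the 6 subunits with a pair the general form had the wider peak. The peaks of the 4 marked tissue isoforms reached a median of 360.5 bp upstream of the TSS and 1209 bp downstream, against 1637 and 1761 bp for the 85 other genes. For 3 of these 4 a promoter sequence was at hand, with CpG ratios from 0.115 to 0.432. Short peaks were common at CpG-poor promoters in general: 29.9% of 5117 coding genes with a CpG ratio under 0.4 had a promoter peak, with a median of 2295.5 bp, against 95.1% of 7100 CpG-rich ones (ratio of at least 0.6 and GC of at least 55%), with a median of 3715.5 bp. Among the genes examined, Cox7a1, Cox8b and Cox7b were CpG-poor, and Cox7b had a peak of 3189 bp.

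Markers of the cells a muscle preparation can hold were read in the same way. Of the 9 MuSC markers (Pax7, Myf5, Myod1, Cd34, Vcam1, Itga7, Sdc4, Cdh15 and Calcr) all 9 had a promoter peak, with a median width of 12012 bp, from 2720 bp at Myod1 to 30239 bp at Myf5. Of 14 genes of the contractile fibre 12 did, with a median of 2662 bp. Acta1 and Tnnt3 had none, and the main TSS lay inside a peak in 8 of the 14. Peaks were found for 0 of 4 blood markers, 3 of 4 endothelial, 3 of 4 fibro-adipogenic and 2 of 2 smooth muscle markers. Over all coding genes the share was 65.4%. The main TSS lay inside a peak for 2 of the 4 endothelial, 2 of the 4 fibro-adipogenic and both smooth muscle markers. That of Pecam1, counted as endothelial, lay 4485 bp from the nearest peak. Of the 12 marked fibre genes 5 had peaks under 2 kb, among them Myh4 (1024 bp) and Tnnc2 (1342 bp). The others were wider, such as Casq1 (4769 bp) and Mb (25949 bp), but neither of these peaks held the main TSS. The main TSS of Casq1 lay in another peak, and that of Mb in none, 219 bp from the nearest one. The study reanalysed its sorted cells and reported a purity well short of complete. Whether the peaks at Cox7a1 and Cox8b come from the stem cells or from other cells in the preparation was not tested.

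The promoter peaks of the oxidative phosphorylation genes were of ordinary width and kept to a narrow range of widths. The median over 89 genes was 3398 bp (3183 to 3794), next to 3413 bp over all 14341 coding genes with a peak. The upper quartile was 1.44 times the lower (4238 against 2941 bp), whereas for all coding genes it was 2.18 times (4910 against 2251 bp). Between 2 and 5 kb lay 82.0% of the widths, against 55.8% for all coding genes. Only 3 (3.37%) were under 2 kb, where all coding genes had 20.3%, and 13 (14.6%) were over 5 kb, where all coding genes had 23.9%. The difference remained among CpG-rich promoters, with a ratio of 1.37 for the 48 CpG-rich genes examined and 1.94 for CpG-rich coding genes.

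The ratio was 1.41 for mitochondrial ribosomal protein genes, with a median of 3121.5 bp (2984 to 3502). It was 1.51 for cytosolic ribosomal proteins (median 3638 bp) and 1.68 for the proteasome (median 3301.5 bp). A narrow range was thus not particular to respiration. It also depended on how closely spaced peaks were treated: with peaks less than 1 kb apart joined, the ratio was 1.70 for the oxidative phosphorylation genes and 2.53 for all coding genes, and 1.52 for mitochondrial ribosomal proteins.

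**Figure D3:**
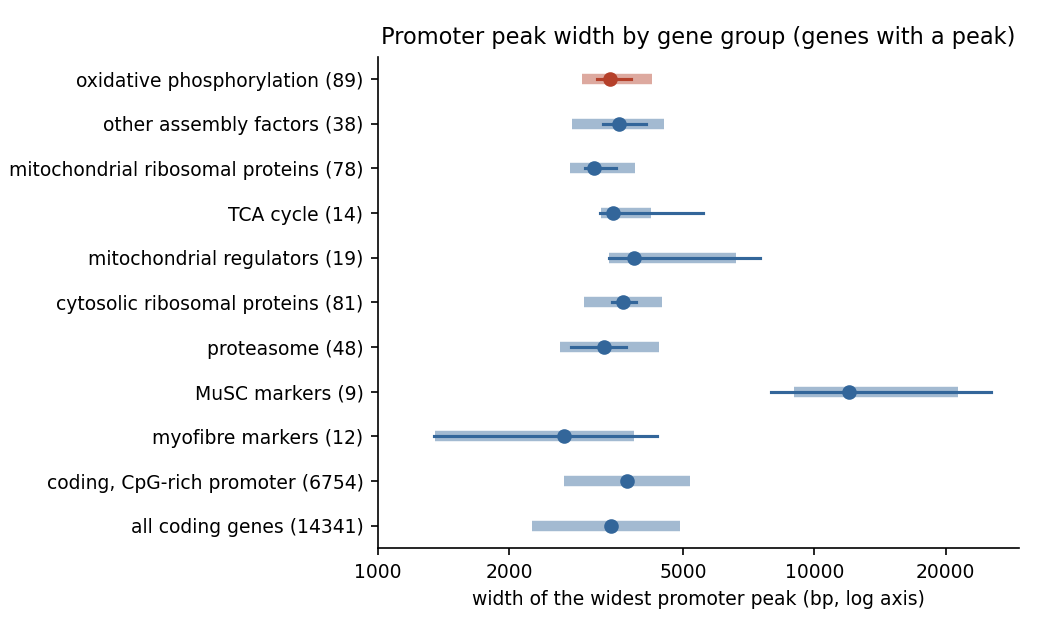
Width of the widest promoter peak (bp, log axis) by gene group, with the number of genes with a peak in parentheses; points are medians, thin lines 95% intervals of the median and thick bars the quartiles. The bar of the oxidative phosphorylation genes runs from 2941 to 4238 bp, inside that of all coding genes from 2251 to 4910 bp, and the MuSC markers stand to the right with a median of 12012 bp.

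The same was seen base by base. All of the 500 bp on either side of the main TSS was covered in 86 of the 89 genes (96.6%), against 69.7% of coding genes with a promoter peak, and all of the 1000 bp in 75 (84.3%, against 49.9%). Downstream the coverage then fell sharply. A peak lay over the base 1000 bp downstream in 98.9% of the genes, at 2000 bp in 41.6% and at 3000 bp in 15.7%, where coding genes with a promoter peak had 80.3, 48.7 and 32.5%. Mitochondrial ribosomal genes fell off still earlier, with 30.8% at 2000 bp, and cytosolic ribosomal genes later, with 56.8%. The median reach was 1742 bp downstream and 1618 bp upstream, and the reach downstream was the longer in 53 of 89 genes (59.6%), compared with 66.0% of coding genes whose main TSS lay in a peak. In complex IV it was the longer in 14 of 15.

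**Figure D4:**
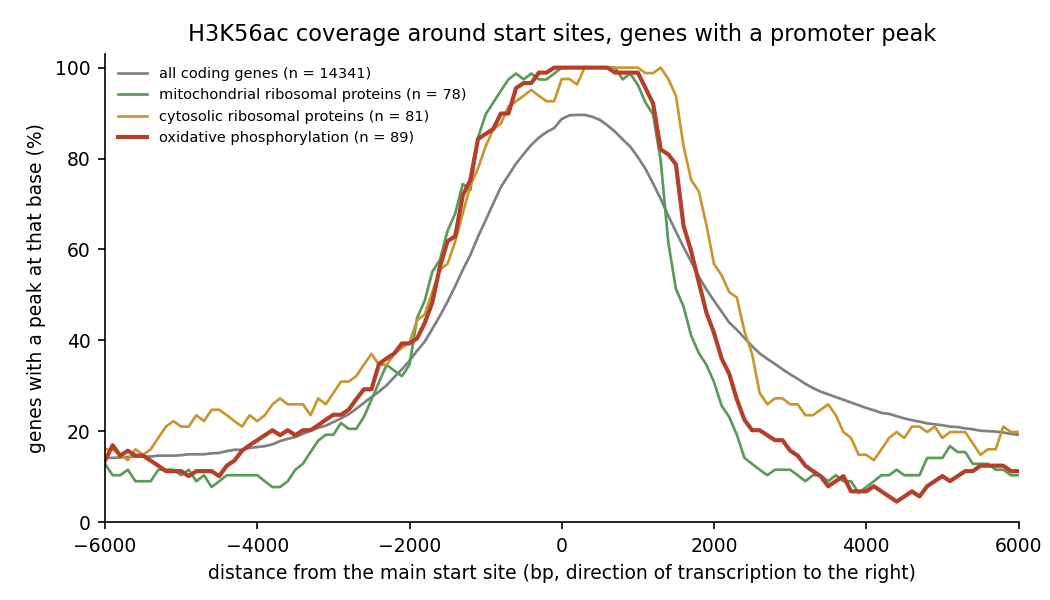
Percentage of genes with a peak over each base, every 100 bp from 6000 bp before to 6000 bp after the main TSS, for genes with a promoter peak. The oxidative phosphorylation genes (n = 89) rise above all coding genes within 1000 bp of the TSS, at 100% over it, and drop below them further downstream, to 5.62% at 4500 bp against 22.8%.

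Few of the promoter peaks reached exon 3, although peaks covered much of the shorter genes. In 88 genes the widest peak overlapped exons of the main transcript: in 42 it ended before exon 2, in 35 it reached exon 2 and no further, and in 11 it went on to exon 3 or beyond. Peaks covered a median of 28.0% of the gene, and this share followed gene length. It was 57.4% for the 28 marked genes under 5 kb and 6.66% for the 5 over 30 kb, next to 61.2 and 8.99% for coding genes of these lengths with a promoter peak. Of 90 genes with sequence more than 1 kb from every TSS, 74 (82.2%) had peak coverage there, with a median of 10.1% covered. Such coverage can belong to the promoter peak itself, as at Cox7c, with 1 peak on the gene and 66.1% covered there. The values were 86.3% and 9.01% for coding genes alone in their promoter peak, and 87.1% and 9.55% for those in shared ones. Over the other coding genes, with or without a promoter peak, they were 62.4% and 3.19%. More than 1 kb from every TSS, the share covered was 48.3% for Ndufc2, with 4 peaks on the gene, and 40.9% for Ndufb6, with 3. Over the whole gene, Atp5k, Cox6b2 and Ndufaf3 were covered in full, Cox8a over 95.9%, Cox7c over 91.4%, Ndufb10 over 90.7% and Atp5d over 89.8%. Cox6a2, Cox7b2 and Cox8c had no coverage, and among genes with a promoter peak the lowest share was 3.00% at Ndufs4, an accessory subunit gene of complex I of 100464 bp. The assembly factor gene Ndufaf2 spans 155909 bp and was covered over 7.88%.

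Many of these genes shared their promoter peak with a neighbour. In 34 of 89 (38.2%) the widest peak held a TSS of another coding gene, against 18.9% of all coding genes with a peak. A divergent coding neighbour within 1 kb was found for 23 of the 93 genes (24.7%), against 7.04% of all coding genes, with or without a peak. Among CpG-rich promoters the shares were 41.7% and 27.1% for the genes examined, against 21.0% and 13.7% for coding genes. The closest divergent neighbours were 3 bp apart, Ndufs1 with Eef1b2, a translation elongation factor gene, and Ndufb11 with Rbm10. Other partners were Rps28 (with Ndufa7, 80 bp), Morn5 (Ndufa8, 52 bp), Rnf113a1 (Ndufa1, 82 bp) and Emc8 (Cox4i1, 101 bp). Some partners also serve mitochondria: the peaks of Ndufb5 and Ndufs6 held the starts of the mitochondrial ribosomal genes Mrpl47 and Mrpl36, that of Sdhd the import chaperone gene Timm8b, and that of Atp5j the start of Gabpa, itself a regulator of respiratory genes. Of the mitochondrial ribosomal genes, 42.3% shared their peak and 29.5% had a divergent neighbour. No 2 of the 89 genes had the same widest peak.

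Sharing went with width. The 34 genes in shared peaks had a median of 3989 bp (3230 to 4573), and the 55 alone in their peak had 3200 bp (3130 to 3617). Over all coding genes the medians were 4205 and 3186 bp. In complex IV only Cox4i1, of 15, shared its peak.

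Promoter sequence was at hand for 76 of the 93 genes, as 300 bases around the RefSeq start. Of these, 63.2% were CpG-rich, next to 62.3% of coding genes with a promoter peak, so the genes examined were not set apart by CpG. The NRF1 motif was found in 21 of 76 (27.6%), against 13.3% of promoters of marked coding genes and 6.25% of all 32851 promoters of the table. The YY1 motif was found in 7 (9.21%, against 3.05 and 1.40%) and the ERR motif in 4, Ndufs5, Sdhd, Atp5l and Atp5g3 (5.26%, against 0.959 and 1.56%). The ETS motif was found in 5 (6.58%, against 8.03 and 3.89%), and the SP1 motif in 46.1%, below the 65.7% of coding genes with a promoter peak. These are counts of letters in a window and not of bound factors.

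Genes with the NRF1 motif came from all 5 complexes, among them Ndufa5, Ndufa11, Sdha, Sdhd, Uqcrc1, Uqcr11, Cox6a1, Atp5g2, Atp5g3 and Atp5o. Sdhd, Ndufs5, Atp5l and Atp5g3 each held the NRF1 and the ERR motif together. In 68 mitochondrial ribosomal promoters the NRF1 motif was found in 23.5%, the YY1 motif in 10.3% and the ETS motif in 17.6%.

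**Figure D5:**
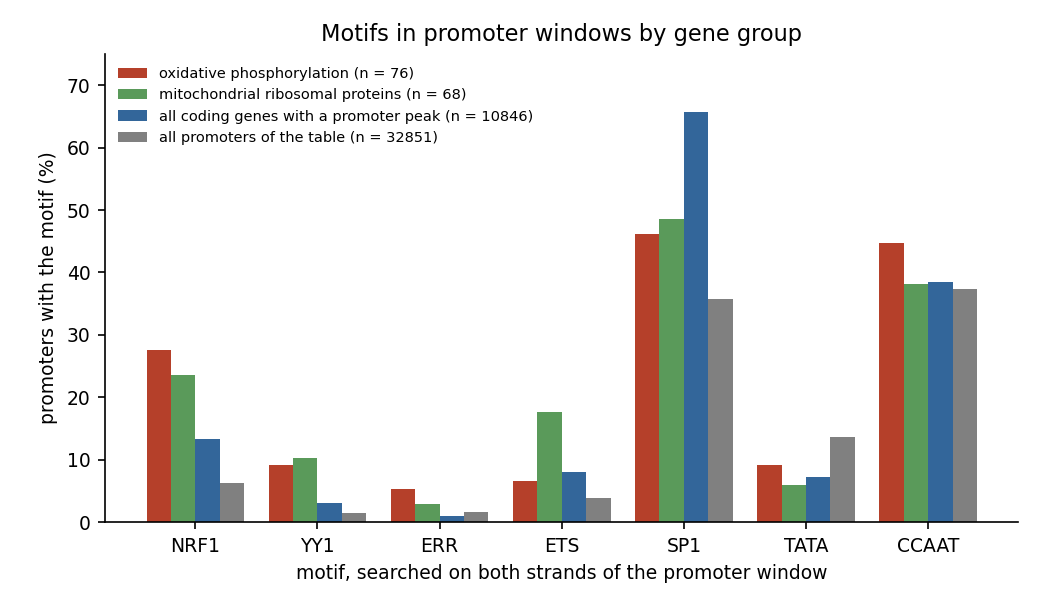
Percentage of promoter windows of 300 bases holding each motif on either strand, for 76 oxidative phosphorylation genes, 68 mitochondrial ribosomal genes, 10846 coding genes with a promoter peak and all 32851 promoters of the table. The NRF1, YY1 and ERR bars are higher for the oxidative phosphorylation genes than for coding genes with a promoter peak, and the SP1 bar is lower.

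The genes that build and control the respiratory chain had promoter peaks in the merged list too. Of 38 further assembly factors of complexes I to V, such as Surf1, Sco1 and Bcs1l, all 38 had a promoter peak, with a median of 3571 bp (3276 to 4108). All 19 regulators had one, with a median of 3859 bp. The peak was 5687 bp wide at Ppargc1a, the coactivator of mitochondrial biogenesis, 7992 bp at Nrf1, 3388 bp at Esrra, which encodes ERR alpha, 4855 bp at Gabpa, in the peak shared with Atp5j, and 3873 bp at Tfam, the packaging and transcription factor of mitochondrial DNA. The narrowest were Esrrb (1262 bp) and Esrrg (1846 bp), and the widest was Ppard (11667 bp). All 14 TCA cycle genes outside complex II had a peak, with a median of 3451.5 bp, from 1892 bp at Suclg2 to 10111 bp at Cs, the citrate synthase gene. Of the cytochromes c, the somatic gene Cycs had 3853 bp and the testis gene Cyct none within 1 kb.

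The 3 X-linked genes, Ndufa1, Ndufb11 and Cox7b, had peaks of 3884, 3183 and 3189 bp. These were wider than was usual there: 46.0% of 948 coding genes on chromosome X had a promoter peak, with a median of 1830.5 bp and an upper quartile of 2669.8 bp. However, Ndufa1 and Ndufb11 lay in peaks shared with a divergent neighbour, while 9.63% of coding genes with a peak on chromosome X shared theirs. Of 12 pseudogenes named by the same rule 1 had a peak, Atp5l2-ps, inside the promoter peak of Cwc25. The 13 protein-coding genes of the mitochondrial genome encode further subunits and carry no histones. They had no entry, as the list held 0 peaks on the mitochondrial chromosome.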

How the data were processed

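The authors sequenced H3K56ac ChIP and input libraries of Control and Sirt6mKO MuSCs on an Ion Torrent instrument, aligned reads to mm10 with Bowtie, removed duplicates, called peaks with MACS2, took out blacklisted regions and merged the peaks of the libraries into 1 list. The submitters' processing notes also name FastQC, SAMtools and deepTools. Which libraries entered the merge is not stated in the sources used here. The deposited list gives start and end coordinates and a score that is 0 in every row, so the depth behind a single peak is not known. The study states read totals per library, which the list does not tie to peaks.

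Start sites came from GENCODE vM21 (GRCm38, equal to mm10 in coordinates), over all transcripts of a gene. The main TSS was that of the transcript tagged principal, the longest where several were. A promoter peak overlapped the 1 kb on either side of a TSS by at least 1 bp, and each gene was described by its widest one. Promoter windows came from the RefSeq promoter table (GRCm38.p6, 250 bases before to 50 after the start). These held no entry for Cox6a2, Cox4i1, Cox4i2, Cox8c and Ndufa4l2, among others. CpG ratio is observed over expected CpG.

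The text names every gene without a promoter peak, the isoform pairs, the 5 widest and 5 narrowest peaks, the genes with the largest covered shares, the Sdh genes, core subunits and 5 regulators. Other genes were named as examples after their values were seen. Some items that these rules name are not reported here. The genes and lists were chosen with earlier results of these data known. Interval measures were tested on simulated peaks and genes. Python 3.11.15, numpy 2.4.6, pandas 2.3.3 and scipy 1.17.1 were used.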

Additional observations from a re-analysis of the deposited data

How the results depend on the processing

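With a single merged list, comparisons of Sirt6mKO with Control and runs without each replicate were not run. No paired analysis was possible because values for single libraries are absent from the list used here. Of 42 alternatives over 8 results, 34 stayed within the 95% interval of the main value. The share of genes with a promoter peak ranged from 90.3% (peak midpoint inside the window) to 96.8% (window of 3 kb), and was 94.7% with the other Atp5o entry, an alternative chosen after seeing the data. The median width was 4174 bp once neighbouring peaks with gaps under 1 kb were joined, and that of all coding genes to 4311 bp. Leaving out 1 kb on either side of each TSS moved the median covered share from 28.0% to 10.1%. The share of all coding genes with a promoter peak ranged from 56.1% to 67.8%. Also chosen after seeing the data, the median width was 3200 bp for genes alone in their peak and 3466 bp without the tissue or condition isoforms. Without a score or values per library, the list limits every value to presence and extent.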
